A study of Mus musculus with 20 samples.

Results

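Hearts of 30-month-old mice fed both alpha-tocopherol and gamma-tocopherol were compared with hearts of 5-month-old mice on a control diet. All arrays labelled with these groups were taken, 10 of the 20 in the series, with 5 animals in each group and 1 array per animal. All were males of the B6/C3H hybrid strain. The supplemented animals received 500 mg/kg of each tocopherol from 15 months of age, and the 5 young controls received none. The other groups were 5 unsupplemented 30-month-old controls and 5 mice of the same age fed 1000 mg/kg alpha-tocopherol. Young and supplemented hearts differ in age and in diet together, so effects of age and of the supplement cannot be told apart within this comparison. Supplemented hearts were therefore also set against old controls. The young group enters both comparisons of old with young hearts, which are thus not independent of each other.

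The tocopherols are fat-soluble antioxidants of the vitamin E family that stop the spread of lipid peroxidation in membranes. The adult heart takes most of its fuel from fatty acids, which are carried into mitochondria as carnitine esters and shortened by the beta-oxidation enzymes. Fatty acids also act on PPAR nuclear receptors, which pair with RXR and switch on genes of fatty acid handling, among them Pdk4, Ucp3, Angptl4, Acot1 and Plin4.

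Levels are log2(intensity + 58), and differences are mixed-tocopherol minus young hearts ± standard error unless another pair is named. Tests were made in limma, each adjusted p is by Benjamini and Hochberg over 7453 probe sets, and a gene was called where it fell below 0.05. All 9 cardiomyocyte markers on the array were measured in both groups, 0 were called and their median difference was 0.01. Of the young arrays, animal 3 stood apart in lymphocyte transcripts. Its summed level of T cell and thymocyte markers was 15.52 against 12.36 to 12.70 in the other young hearts and 12.36 to 12.90 in mixed-tocopherol hearts. Old controls 1 and 4 carry a strain label without the first-generation mark that the other animals have. Old control 3 stood apart in the Gapdh probe sets for the end and start of the transcript. Their difference was 1.21 there and -0.15 to -0.11 in the other old controls. Without old control 3, 406 probe sets were called between mixed-tocopherol hearts and old controls, and 479 with it. The bacterial hybridization controls (difference 0.20) and the array medians (0.03) gave exact two-sided permutation p = 0.32 and 0.22. In the same exact permutation test, for which 0.0079 is the smallest possible p, the actin probe sets for the end and start of the transcript differed less in mixed-tocopherol than in young hearts (by -0.13, p = 0.048, 0.24 after adjustment over 5 array measures).

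Mixed-tocopherol hearts showed lower levels of genes of fatty acid use and of metallothioneins than young hearts, and higher levels of 4 heat shock proteins and of both forms of the first enzyme of heme synthesis (Alas1 and Alas2). In all, 414 of 7453 probe sets were called (5.55%), 182 higher and 232 lower. Among genes with a single symbol, 315 of 5663 were called (5.56%), of which 133 were higher (2.35% of those tested) and 182 lower (3.21%). The median called difference was 0.63 among the higher and -0.65 among the lower genes, and 51 called genes differed by more than 1 on the log2 scale. In 199 of the called genes the 5 mixed-tocopherol arrays lay entirely outside the range of the young arrays, and 357 of all tested genes did so (6.3%). With 5 animals per group, standard errors of the differences had a median of 0.179.

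**Figure D1:**
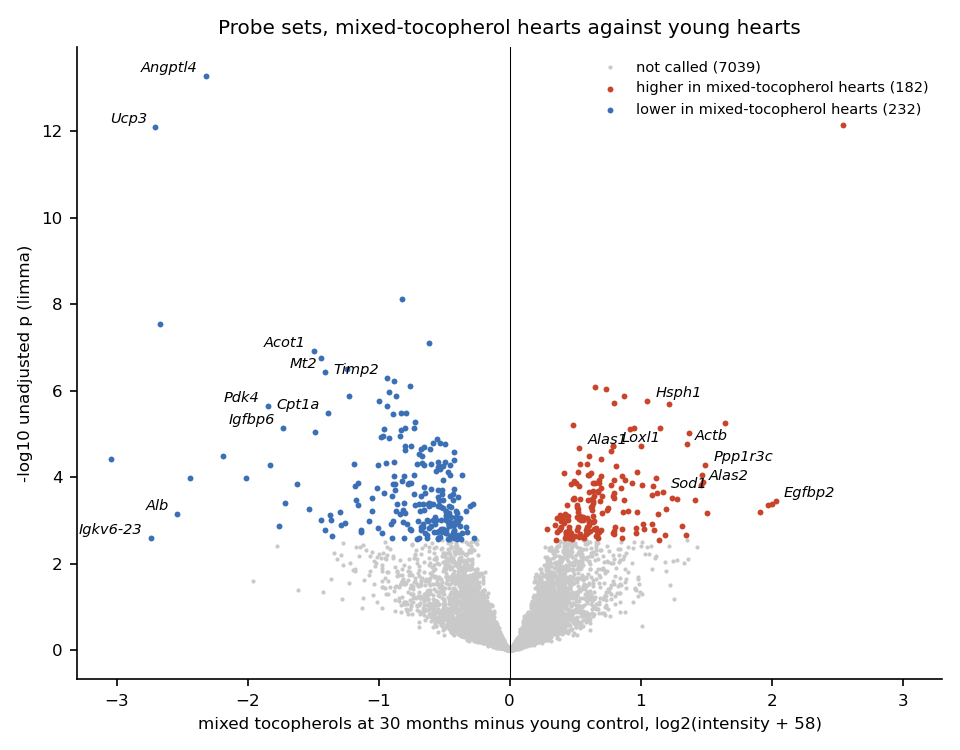
Each point is 1 of 7453 probe sets, with the difference between mixed-tocopherol and young hearts (5 animals each) on the x axis and minus log10 of the unadjusted limma p on the y axis. The 182 called higher are red, the 232 called lower are blue, and Ucp3 and Angptl4 lie at the far upper left with differences of -2.71 and -2.32.

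Genes of fatty acid oxidation made up the largest group of lower genes among the lists examined. Of 34 tested members 16 were called lower and 0 higher, against 3.21% called lower among all tested genes, and the median difference was -0.34 against 0.013 over all genes. The called members fell into each of the 4 roles in the list. They were 6 of 8 genes known as PPAR targets and their regulators, 6 of 11 beta-oxidation enzymes, 3 of 7 genes of the carnitine shuttle and electron transfer, and 1 of 8 genes of uptake and lipolysis. When each of the 10 animals was left out in turn, 11 to 17 members were called lower, the fewest without mixed-tocopherol animal 5. Unsupplemented old controls had 19 of the 34 called lower than young hearts and 0 higher, with a median of -0.44. That comparison called 5.39% of all tested genes. Adipocyte markers summed to 15.93 to 16.22 in young and 15.48 to 17.00 in mixed-tocopherol hearts, and 1 of 8, the lipase Lipe, was called lower; their part in these differences was not tested. In whole tissue, fewer cells of a type and less RNA per cell cannot be told apart.

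**Figure D2:**
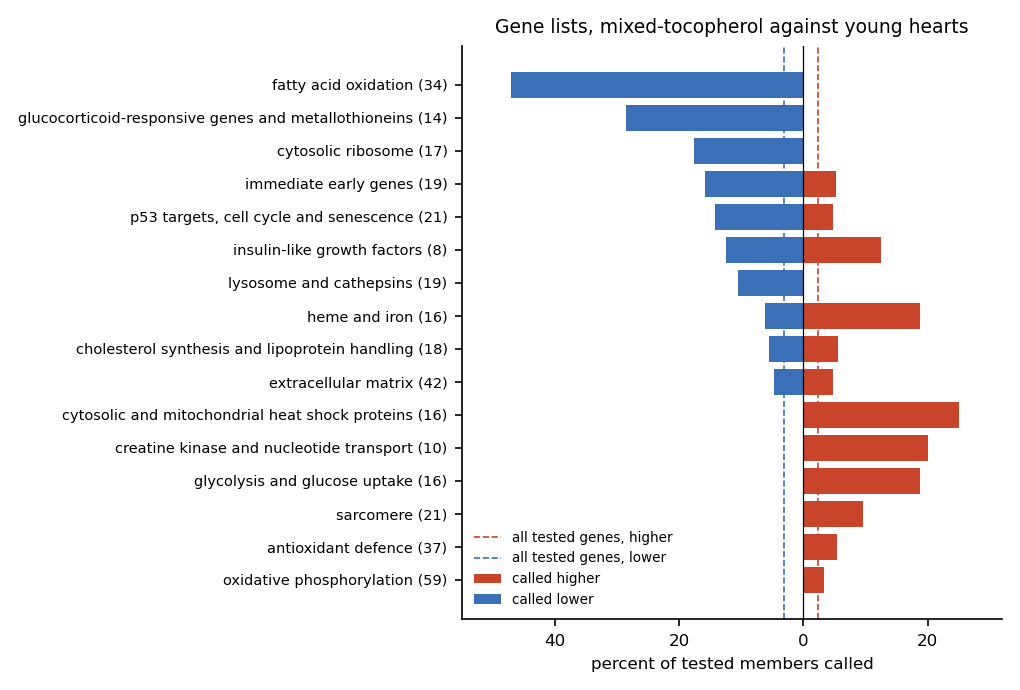
Bars give the percent of tested members called higher (red, right) or lower (blue, left) in mixed-tocopherol against young hearts for each list with at least 2 called members, with the number tested in brackets. Dashed lines give the share over all tested genes, 2.35% higher and 3.21% lower, and fatty acid oxidation reaches farthest to the left with 16 of 34.

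The promoters of Ucp3, Pdk4 and Acot1 are shown because these genes are textbook PPAR targets and were among the largest drops. Each is the 250 bases before the transcript start from RefSeq on GRCm38.p6, written 5′ to 3′ on the gene's strand, with capitals for the PPAR and RXR half-site AGGNCA on either strand. Ucp3 lies on the plus strand with this window at chr7:100472741-100472990, Pdk4 on the minus strand at chr6:5496279-5496528, and Acot1 on the plus strand at chr12:84009252-84009501.
Ucp3: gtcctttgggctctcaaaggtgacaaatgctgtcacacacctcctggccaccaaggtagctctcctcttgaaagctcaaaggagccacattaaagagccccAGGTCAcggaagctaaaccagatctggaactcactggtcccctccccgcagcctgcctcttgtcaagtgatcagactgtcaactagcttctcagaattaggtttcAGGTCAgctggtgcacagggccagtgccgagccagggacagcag
Pdk4: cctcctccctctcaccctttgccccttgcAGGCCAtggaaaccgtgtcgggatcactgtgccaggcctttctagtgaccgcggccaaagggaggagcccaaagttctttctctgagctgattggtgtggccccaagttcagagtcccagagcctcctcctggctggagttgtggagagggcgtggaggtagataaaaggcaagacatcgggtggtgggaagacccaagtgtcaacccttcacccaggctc
Acot1: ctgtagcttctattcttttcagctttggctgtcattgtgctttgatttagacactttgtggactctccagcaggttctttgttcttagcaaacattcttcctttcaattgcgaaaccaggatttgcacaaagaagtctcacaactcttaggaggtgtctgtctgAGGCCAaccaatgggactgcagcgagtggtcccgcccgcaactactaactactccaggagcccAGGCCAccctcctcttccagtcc
Ucp3 held 2 half-sites, 149 and 44 bases before the start, Pdk4 held 1 and Acot1 held 2. Of 14 promoter entries for 13 of the called fatty acid genes, 12 held a half-site (85.7%), and of all 32851 promoters 51.3% did. A full direct repeat 1 (a pair of half-sites with 1 base between, on either strand) lay in 0 of these 14 entries and in 0.381% of all promoters when 50 bases after the start were included. The half-site was searched after the repeat had been found in none of them. A match describes letters in these windows and says nothing on binding.

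Ucp3, a mitochondrial carrier protein of muscle, showed the largest drop among the PPAR targets. Its level was 12.06, 11.95, 11.52, 12.12 and 12.25 in young animals 1 to 5, and 9.45, 8.59, 9.50, 9.35 and 9.48 in mixed-tocopherol animals 1 to 5. The groups did not overlap, and mixed-tocopherol animal 2 was the lowest of all. The difference was -2.71 ± 0.19 (adjusted p = 2e-09), which is 6.53-fold on this scale.

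Angptl4, a secreted inhibitor of lipoprotein lipase, measured 12.06, 11.76, 11.34, 11.66 and 11.48 in young hearts, and 9.24, 9.13, 9.34, 9.58 and 9.43 in mixed-tocopherol hearts. Every mixed-tocopherol heart lay below every young one, with a narrow spread in each group, and the difference was -2.32 ± 0.14 (adjusted p = 3.9e-10). Both other tested probe sets of this gene also read lower. One was called (-2.67 ± 0.32, adjusted p = 4.2e-05) and the other was not (-0.54 ± 0.41, adjusted p = 0.51).

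Pdk4 is the kinase that inactivates pyruvate dehydrogenase and so holds back glucose oxidation. Its level was 15.14, 15.20, 15.13, 15.61 and 15.54 in young hearts, and 13.04, 14.02, 13.28, 13.79 and 13.25 in mixed-tocopherol hearts. The groups were well apart, and mixed-tocopherol animals 2 and 4 were the closest to the young range. The difference was -1.85 ± 0.29 (adjusted p = 0.00068).

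Acot1, a cytosolic thioesterase that frees fatty acids from coenzyme A, measured 11.86, 12.17, 11.37, 12.05 and 12.02 in young hearts and 9.93, 10.62, 10.51, 10.39 and 10.57 in mixed-tocopherol hearts. These did not overlap either, with a difference of -1.49 ± 0.20 (adjusted p = 0.00013). Plin4, a coat protein of lipid droplets, differed by -0.98 ± 0.18 (adjusted p = 0.002), with 10.83 to 11.51 in mixed-tocopherol hearts and 11.85 to 12.24 in young ones. Mlycd, which breaks down the inhibitor of carnitine palmitoyltransferase, differed by -0.46 ± 0.12 (adjusted p = 0.028), a call kept in 5 of 10 fits that left out 1 animal (adjusted p up to 0.072, without mixed-tocopherol animal 5). Plin2 (-0.09 ± 0.17) and the fatty acid binding protein Fabp4 (0.15 ± 0.18) of the same group were not called.

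**Figure D3:**
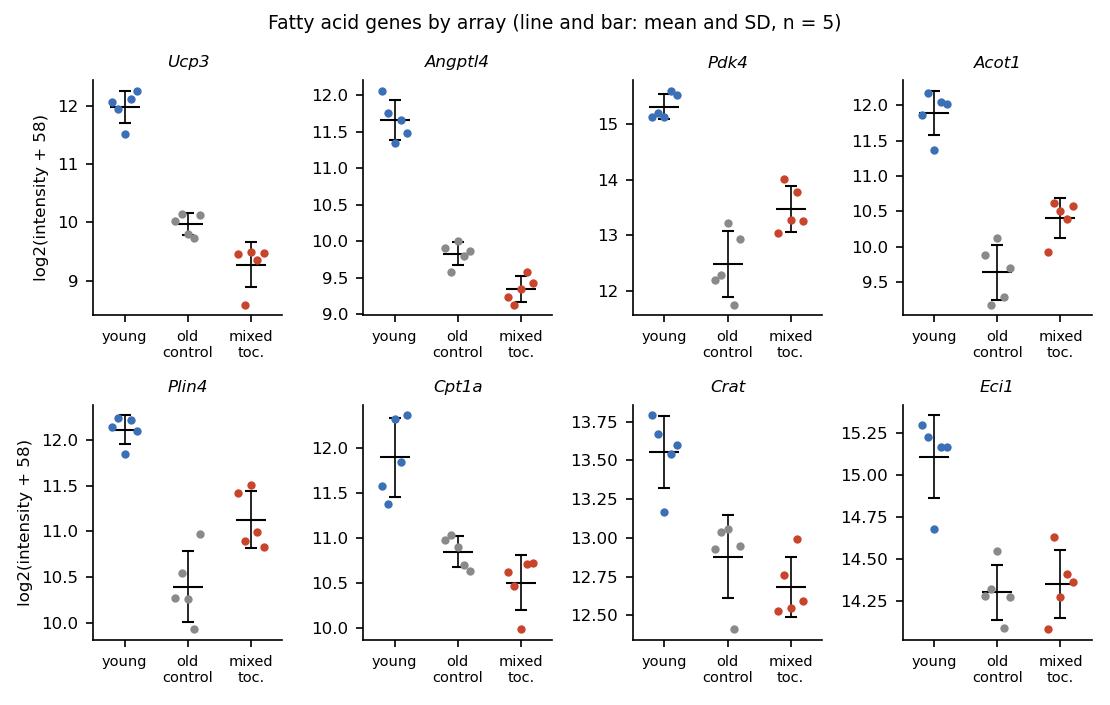
Levels as log2(intensity + 58) of 8 fatty acid genes in each of 5 young (blue), 5 old control (grey) and 5 mixed-tocopherol hearts (red), with group means and SD as black bars. In all 8 genes every mixed-tocopherol heart lies below every young heart, and for Pdk4, Acot1 and Plin4 the mixed-tocopherol means lie above the old control means.

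Of the carnitine shuttle, Cpt1a (the liver-type carnitine palmitoyltransferase of the outer membrane) showed the largest difference. It measured 11.58, 11.38, 12.32, 11.84 and 12.36 in young and 10.63, 10.47, 9.99, 10.71 and 10.72 in mixed-tocopherol hearts. The lowest young heart stood above the highest mixed-tocopherol heart, and the difference was -1.39 ± 0.22 (adjusted p = 0.00087). Crat, which moves acetyl groups between carnitine and coenzyme A, differed by -0.87 ± 0.13 (adjusted p = 0.00053) without overlap. Cpt2, the inner-membrane counterpart of Cpt1a, differed by -0.49 ± 0.12 (adjusted p = 0.023) with overlapping groups. Its call was kept in 5 of 10 fits that left out 1 animal, with an adjusted p of up to 0.067 (without young control 2). The electron transfer genes Etfdh (-0.34 ± 0.16), Etfb (-0.12 ± 0.15) and Etfa (0.05 ± 0.10) and the carnitine carrier Slc25a20 (-0.16 ± 0.12) were not called.

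Among beta-oxidation enzymes the isomerases and reductases of unsaturated fatty acids differed most. Eci1, an enoyl-CoA isomerase, measured 15.30, 15.23, 14.68, 15.17 and 15.17 in young hearts and 14.08, 14.63, 14.27, 14.41 and 14.36 in mixed-tocopherol hearts. Young animal 3 was the lowest of its group and still above all mixed-tocopherol hearts, with a difference of -0.76 ± 0.11 (adjusted p = 0.00043). The dienoyl-CoA reductase Decr1 (-0.65 ± 0.15, adjusted p = 0.011) and the dienoyl-CoA isomerase Ech1 (-0.57 ± 0.12, adjusted p = 0.006) were lower too. The long-chain dehydrogenase Acadl (-0.54 ± 0.15), Hadh (-0.40 ± 0.10) and the trifunctional protein subunit Hadhb (-0.33 ± 0.09) were called with adjusted p = 0.038, 0.021 and 0.038. Their calls were kept in 3, 6 and 3 of 10 fits that left out 1 animal. The highest adjusted p-values there were 0.11 for Acadl without mixed-tocopherol animal 1, 0.061 for Hadh without young control 2 and 0.10 for Hadhb without mixed-tocopherol animal 5. The medium- and short-chain dehydrogenases Acadm (-0.15 ± 0.08) and Acads (-0.12 ± 0.13) were not called, nor was Echs1 (0.33 ± 0.15), the 1 enzyme of the 11 with a positive difference.

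Genes of uptake and lipolysis were called least often. Lipe, hormone-sensitive lipase, differed by -0.94 ± 0.19 (adjusted p = 0.0046), with 10.22 to 11.18 in mixed-tocopherol and 11.21 to 11.77 in young hearts, which just fail to meet. The fatty acid transporters Cd36 (-0.31 ± 0.15, adjusted p = 0.23) and Slc27a1 (-0.56 ± 0.19, adjusted p = 0.088), the triglyceride lipase Pnpla2 (-0.29 ± 0.14, adjusted p = 0.27), lipoprotein lipase Lpl (0.11 ± 0.12) and the binding protein Fabp3 (-0.27 ± 0.11) were not called. Of the 16 called fatty acid genes, 11 were called whichever animal was left out and 10 of these under every other setting tried as well.

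**Figure D4:**
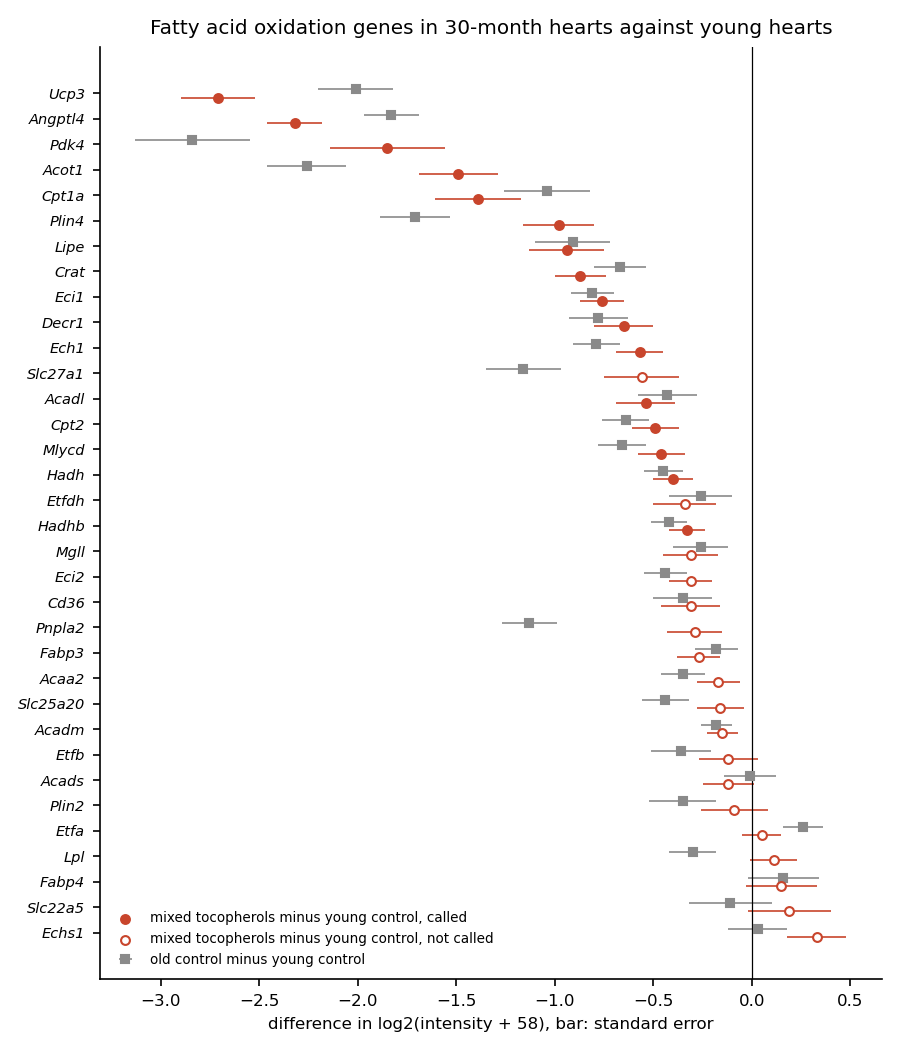
Differences from young hearts on the log2(intensity + 58) scale for 34 fatty acid oxidation genes, in mixed-tocopherol hearts (red, filled where called) and in old controls (grey squares), with standard errors as bars. Of the red points 16 are filled, all left of 0, and both series share the same 5 young controls.

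Against old controls, the test of a difference at 1 age, 5 of the 34 fatty acid genes were called higher in mixed-tocopherol hearts and 2 lower, where 6.85% of all tested genes were called in either direction. Pnpla2 was higher by 0.85 ± 0.14 (adjusted p = 0.0015). Old controls read 1.13 below young hearts in Pnpla2, and mixed-tocopherol hearts did not differ from young hearts by a called amount. Pnpla2 is also an adipocyte marker, and these markers summed to 15.15 to 15.66 in old control and 15.48 to 17.00 in mixed-tocopherol hearts. The part of adipocytes in the differences from old controls was not tested. Acot1 was higher by 0.77 ± 0.20 (adjusted p = 0.021), Plin4 by 0.73 ± 0.18 (adjusted p = 0.017), Lpl by 0.41 ± 0.12 (adjusted p = 0.036) and Pdk4 by 1.00 ± 0.29 (adjusted p = 0.043). Beside these, old controls differed from young hearts by -2.84 ± 0.29 for Pdk4, -2.26 ± 0.20 for Acot1 and -1.71 ± 0.18 for Plin4, in a comparison that called 5.39% of tested genes. For Pdk4, Acot1 and Plin4 the mixed-tocopherol mean thus lay between the old and the young mean. Ucp3 (-0.69 ± 0.19, adjusted p = 0.028) and Angptl4 (-0.48 ± 0.14, adjusted p = 0.04) were instead lower than in old controls, on the far side from the young level. Cpt1a, Crat and Eci1 were lower in old controls than in young hearts too (-1.04, -0.67 and -0.81). They were not called between mixed-tocopherol hearts and old controls. Without old controls 1 and 4, a setting chosen after seeing the data, Pnpla2 stayed called (0.69, adjusted p = 0.026), and it was the 1 called member left. There Pdk4 read 0.66 (adjusted p = 0.26), Acot1 0.74 (0.083), Plin4 0.53 (0.13), Lpl 0.34 (0.17), Ucp3 -0.75 (0.077) and Angptl4 -0.47 (0.14). When 1 animal was left out at a time, the highest adjusted p was 0.12 for Pdk4 (without old control 4), 0.058 for Acot1 (without old control 2) and 0.05 for Plin4 (without mixed-tocopherol animal 1). It was 0.092 for Lpl (without mixed-tocopherol animal 1), and 0.079 for Ucp3 and 0.099 for Angptl4 (both without mixed-tocopherol animal 2).

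In the glycolysis list 3 of 16 members were called higher and 0 lower, where 2.35% of all tested genes were higher. The list's median was 0.10, with 5 of 16 differences below 0. Old controls had 5 of the 16 called higher than young hearts and 0 lower, with a median of 0.23. Hexokinase Hk2, which traps glucose in the cell, measured 12.26, 12.46, 11.88, 12.45 and 12.42 in young and 12.82, 12.80, 12.98, 12.66 and 12.67 in mixed-tocopherol hearts. No mixed-tocopherol heart overlapped the young range, and the difference was 0.49 ± 0.12 (adjusted p = 0.014). The muscle enolase Eno3 was higher by 0.54 ± 0.13 (adjusted p = 0.014) and the mutase Pgam1 by 0.56 ± 0.15 (adjusted p = 0.024). When only these 2 groups were fitted, 1 glycolysis gene was called, with Eno3 at an adjusted p of 0.058 and Pgam1 at 0.055. Pgam1 also reached 0.07 without mixed-tocopherol animal 4. Txnip, an arrestin-like protein that limits glucose uptake and binds thioredoxin, was lower by -1.44 ± 0.19 (adjusted p = 0.00016). It measured 13.10, 13.05, 11.84, 13.13 and 13.16 in mixed-tocopherol hearts, against 14.13 to 14.48 in young ones. Mixed-tocopherol animal 3 was far below its group, and the other 4 were also below all young hearts. A second probe set of Txnip read 0.09. Of the creatine kinase and nucleotide transport list 2 of 10 were called higher, against the same 2.35%. They were Ckb (0.62 ± 0.15, adjusted p = 0.017) and the adenine nucleotide carrier Slc25a5 (0.44 ± 0.12, adjusted p = 0.027). Slc25a5 had 2 other probe sets of opposite sign (-0.57 and -0.25). Ckb had an adjusted p of 0.055 without mixed-tocopherol animal 2, and Slc25a5 one of 0.078 without young control 1.

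Genes of the respiratory chain and the citrate cycle were not called more often than all tested genes, of which 5.56% were called. Of 59 oxidative phosphorylation genes 2 were called, both higher and both of complex III, Uqcrb (0.39 ± 0.10) and Uqcrc2 (0.36 ± 0.10), and the list's median was 0.02. Each was called in 4 of 10 fits that left out 1 animal, with an adjusted p of up to 0.075 for Uqcrb (without young control 2) and 0.10 for Uqcrc2 (without young control 3). Of 17 citrate cycle and pyruvate dehydrogenase genes 0 were called by limma and the median was -0.03. Of 39 genes of the mitochondrial ribosome and of protein import 1 was called against young hearts, Mrps14 (0.63 ± 0.16, adjusted p = 0.019, and 0.057 without mixed-tocopherol animal 4). Old controls had 6 of the 39 called higher than young hearts and 0 lower, with a median of 0.25 (0.10 in mixed-tocopherol hearts). Against old controls 10 of these 39 were lower and 0 higher (6.85% of all tested genes called), among them Mrpl12 (-0.85, adjusted p = 0.0015) and Mrpl39 (-0.61, adjusted p = 0.012). The number was 4 without mixed-tocopherol animal 1, 5 without mixed-tocopherol animal 2 or old control 2, and 4 without old controls 1 and 4, where Mrpl12 read -0.90 (adjusted p = 0.011) and Mrpl39 -0.69 (0.026).

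Heat shock proteins, chaperones that refold or hold damaged proteins, rose in 4 of 16 tested members and fell in 0, where 2.35% of all tested genes were higher. The list's median was 0.04, so the other members did not share this shift. Old controls had 2 of the 16 called higher than young hearts and 0 lower, with a median of 0.12, where 5.39% of all tested genes were called. Between mixed-tocopherol hearts and old controls 1 of the 16 was higher and 2 were lower, with 6.85% of all tested genes called. Hsph1, a nucleotide exchange partner of the major chaperones, measured 10.33, 10.07, 10.17, 10.13 and 9.88 in young hearts and 11.24, 11.18, 10.58, 11.47 and 11.34 in mixed-tocopherol hearts. Mixed-tocopherol animal 3 was the lowest of its group, and all 5 stood above the young hearts. The difference was 1.05 ± 0.16 (adjusted p = 0.00062). Old controls were also higher than young hearts in Hsph1, by 0.80 (adjusted p = 0.0042), and mixed-tocopherol hearts were not called against old controls (0.24, adjusted p = 0.39). Hsp90aa1, an inducible chaperone of signalling proteins, measured 12.71, 13.17, 11.87, 13.51 and 13.37 against 11.34 to 12.28, so that animal 3 again lay lowest and here within the young range. It was higher by 1.13 ± 0.26 (adjusted p = 0.011). The small lens and muscle chaperone Cryab was higher by 0.44 ± 0.11 (adjusted p = 0.016) and the constitutive Hspa8 by 0.39 ± 0.11 (adjusted p = 0.033). With the level of the 18S ribosomal RNA probe sets as a covariate 2 of the 4 were called, with Cryab at an adjusted p of 0.085 and Hspa8 at 0.071, and Hspa8 reached 0.082 without mixed-tocopherol animal 4. Of 10 chaperones and folding enzymes of the endoplasmic reticulum 1 was called, and of 9 transducers and targets of its stress response 0 were by limma. The called gene was the disulfide isomerase Pdia3 (1.31 ± 0.36, adjusted p = 0.032, and 0.084 without young control 2).

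Metallothioneins and glucocorticoid-responsive genes were lower in 4 of 14 cases and higher in 0, where 3.21% of all tested genes were lower. Mt2, a metal-binding protein induced by zinc and glucocorticoids, measured 13.93, 14.44, 13.39, 13.35 and 13.60 in young and 12.64, 12.45, 12.54, 11.92 and 12.13 in mixed-tocopherol hearts. All mixed-tocopherol hearts lay below the young ones, with a difference of -1.41 ± 0.20 (adjusted p = 0.00028). Its neighbour Mt1 was lower by -0.80 ± 0.20 (adjusted p = 0.021), and the 2 share much of their sequence, so signal could be divided between them. The receptor inhibitor Errfi1 (-0.65 ± 0.16, adjusted p = 0.019) and the kinase Sgk1 (-0.63 ± 0.18, adjusted p = 0.047) were lower as well. Without mixed-tocopherol animal 2 the list had 1 lower gene. The highest adjusted p with 1 animal left out was 0.063 for Mt1 (without young control 2), 0.058 for Errfi1 (without young control 5) and 0.12 for Sgk1 (without young control 1). Old controls also had 4 of the 14 called lower than young hearts, with a median of -0.43 (-0.25 in mixed-tocopherol hearts). They differed from young hearts by -1.44 in Mt2 and -0.78 in Mt1. Mixed-tocopherol hearts differed from old controls by 0.03 and -0.02 in these 2 genes, and neither was called.

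Of 19 immediate early genes, which respond within minutes to stimuli, 3 were lower and 1 higher, with a median of -0.35. Of all tested genes 3.21% were lower and 2.35% higher. Zfp36, which marks cytokine transcripts for decay, measured 11.54, 11.44, 11.30, 10.97 and 11.17 in young and 10.44, 10.52, 9.87, 10.33 and 10.59 in mixed-tocopherol hearts. The ranges did not meet, and the difference was -0.93 ± 0.15 (adjusted p = 0.00068). The zinc-finger factor Klf6 was lower by -0.58 ± 0.11 (adjusted p = 0.0024), the antiproliferative factor Btg2 was lower by -0.65 ± 0.18 (adjusted p = 0.039) and Ier3 was higher by 0.43 ± 0.12 (adjusted p = 0.038). Without young control 3, the heart with lymphocyte transcripts, Btg2 and Ier3 had an adjusted p of 0.11 each. Of 21 genes of p53, the cell cycle and senescence 3 were lower and 1 higher, against the same shares over all tested genes. The stress-inducible metabolic regulator Sesn1 was lower by -0.92 ± 0.14 (adjusted p = 0.00051), the membrane protein Perp was lower by -0.49 ± 0.12 (adjusted p = 0.02), Btg2 is listed here too, and cyclin D1 (Ccnd1) was higher by 0.64 ± 0.14 (adjusted p = 0.01). Without mixed-tocopherol animal 2 this list had 1 lower gene, and Perp an adjusted p of 0.064. Cdkn1a, a cell cycle inhibitor used as a senescence marker, differed by 0.29 ± 0.23 and was not called.

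Antioxidant genes were called in 2 of 37 cases, near the 5.56% called among all tested genes. Both were higher, and the list median was 0.10. Sod1, the cytosolic superoxide dismutase, measured 13.56, 13.54, 13.49, 13.42 and 13.40 in young hearts and 15.13, 15.60, 14.02, 13.50 and 15.02 in mixed-tocopherol hearts. Mixed-tocopherol animals 1, 2 and 5 stood high, animal 3 lay between, and animal 4 was within the young range. The difference was 1.17 ± 0.27 (adjusted p = 0.011), 0.60 with the 18S level as a covariate (adjusted p = 0.017), and not called when only these 2 groups were fitted (adjusted p = 0.059). The glutathione transferase Gsta4, which detoxifies lipid peroxidation products, was higher by 0.85 ± 0.19 (adjusted p = 0.0094), with overlap of the groups. Catalase (Cat, 0.21 ± 0.12, adjusted p = 0.31), Gpx1 (0.16 ± 0.12), the mitochondrial Sod2 (0.12 ± 0.12) and the heme oxygenase Hmox1 (-0.05 ± 0.11) were not called. A second catalase probe set, slightly dimmer, was lower by -0.62 ± 0.15 (adjusted p = 0.017), so the direction of Cat is uncertain. Against old controls Sod1 (1.22, adjusted p = 0.0088), the glutathione transferase Gstm1 (0.67, adjusted p = 0.00031) and the brighter Cat probe set (0.41, adjusted p = 0.036) were higher. Without old controls 1 and 4 they read 1.10 (adjusted p = 0.057), 0.64 (0.0066) and 0.39 (0.13). The call of Cat was kept in 1 of 10 fits that left out 1 animal, with an adjusted p of up to 0.096 (without mixed-tocopherol animal 2).

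The same mixed-tocopherol animals stood high in other genes and in ribosomal RNA. The kinase Uhmk1 measured 12.81, 12.71, 10.53, 10.92 and 12.81 in mixed-tocopherol animals 1 to 5 against 10.55 to 11.06 in young hearts. Animals 1, 2 and 5 were high and the other two were close to young hearts, and a second probe set read 0.27. Nipsnap2, a mitochondrial protein named here after its values were seen, measured 16.23, 16.37, 15.24, 14.86 and 15.83 against 14.31 to 14.98, with animal 4 within the young range. The cytoskeletal actin gene Actb, which measured 14.09, 14.34, 13.08, 13.03 and 13.82 against 11.96 to 12.54, was high in the same animals, though all 5 lay above the young hearts. The 18S probe sets read 11.73, 11.98, 10.76, 9.90 and 11.91 in mixed-tocopherol animals 1 to 5 and 10.13 to 10.77 in young hearts, a difference of 0.70 (exact two-sided permutation p = 0.13). Uhmk1 was called at 1.19 ± 0.34 (adjusted p = 0.043), and was not with the 18S covariate (0.58, adjusted p = 0.25) or without mixed-tocopherol animal 2 (adjusted p = 0.12). Nipsnap2 (1.09 ± 0.24, adjusted p = 0.009) and Actb (1.35 ± 0.25, adjusted p = 0.0025, and 1.05 with the covariate) kept their calls. The part of the 18S level in these differences was not tested further.

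**Figure D5:**
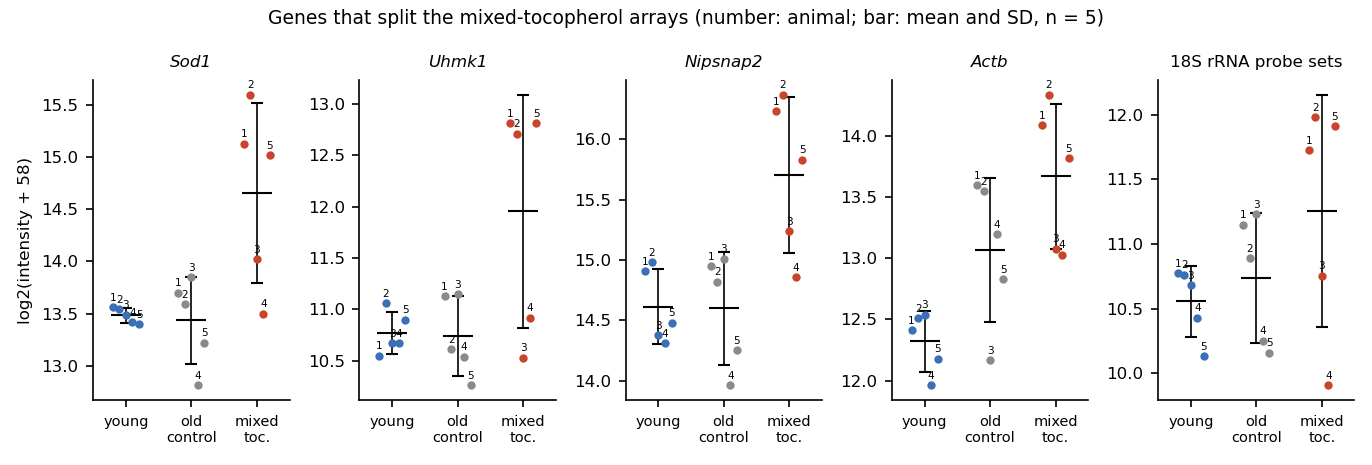
Levels as log2(intensity + 58) of 4 genes and of the 18S ribosomal RNA probe sets in 5 young (blue), 5 old control (grey) and 5 mixed-tocopherol hearts (red), numbered by animal within each group, with means and SD as black bars. Mixed-tocopherol animals 1, 2 and 5 lie above animals 3 and 4 in every panel.

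Extracellular matrix genes were called in 4 of 42 cases, 2 in each direction, where 5.56% of all tested genes were called. Of the 42, 34 had a negative difference, and the median was -0.17. Timp2, an inhibitor of matrix metalloproteinases, measured 11.63, 11.37, 11.26, 11.44 and 11.22 in young and 10.45, 10.72, 10.15, 10.34 and 10.59 in mixed-tocopherol hearts. The groups did not overlap, and the difference was -0.94 ± 0.13 (adjusted p = 0.00034). The fibrillar collagen Col3a1 was lower by -1.05 ± 0.26 (adjusted p = 0.02, and 0.059 without young control 2). The cross-linking enzyme Loxl1 was higher by 0.79 ± 0.15 (adjusted p = 0.0026), with 10.91 to 11.20 in mixed-tocopherol and 9.93 to 10.45 in young hearts. The collagen chaperone Serpinh1 was higher by 0.80 ± 0.19 (adjusted p = 0.013, and 0.062 when only these 2 groups were fitted). Col1a1 (-0.17 ± 0.18) was not called. Of 12 fibroblast markers 2 were lower and 0 higher, Col3a1 and the collagen receptor Ddr2 (-1.62 ± 0.35, adjusted p = 0.0084), and their summed level was 15.91 to 16.53 in mixed-tocopherol and 16.42 to 16.61 in young hearts. Igfbp6, which binds insulin-like growth factors, measured 9.28, 9.22, 10.43, 9.92 and 8.62 against 10.92 to 11.42. Every mixed-tocopherol heart was lower, and the difference was -1.73 ± 0.30 (adjusted p = 0.0015).

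Against old controls 11 of the 42 matrix genes were lower and 2 higher, with 6.85% of all tested genes called. The 2 higher were Loxl1 and the fibrillar collagen Col1a2 (0.50, adjusted p = 0.012). Serpinh1 (0.23, adjusted p = 0.49) and the fibroblast marker Ddr2 (-0.90, adjusted p = 0.13) were not called there. Timp2 differed by -0.89 (adjusted p = 0.00051), Col3a1 by -1.54 (0.0015), Loxl1 by 0.90 (0.0011) and Igfbp6 by -1.71 (0.0017), while old controls differed from young ones by -0.04, 0.49, -0.12 and -0.02 in these genes. Of 12 basement membrane genes 5 were lower than in old controls and 0 were called against young hearts. Col15a1 differed by -1.44 from old controls (adjusted p = 0.00074) and by -0.43 from young hearts (adjusted p = 0.28), and Col4a1 by -0.71 (adjusted p = 0.0088) and 0.13 (0.68). Without old controls 1 and 4 there were 4 lower matrix genes, with Timp2 at -0.94 (adjusted p = 0.006), Col3a1 at -1.53 (0.015), Col15a1 at -1.41 (0.011) and the basement membrane collagen Col4a2 at -0.49 (0.039). Col4a1 was not called there (-0.66, adjusted p = 0.059). In that setting Loxl1 was 0.79 (adjusted p = 0.016), Col1a2 0.54 (0.042) and Igfbp6 -1.82 (0.011).

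Heme and iron genes were higher in 3 of 16 cases and lower in 1, where 2.35% of all tested genes were higher and 3.21% lower. Of the 8 heme synthesis genes among them 2 were higher and 1 lower, with a median of 0.01. Alas2, the erythroid form of the first enzyme of heme synthesis, measured 12.65, 11.81, 11.71, 12.01 and 11.47 in young and 14.43, 13.41, 13.01, 13.30 and 12.79 in mixed-tocopherol hearts. The groups did not overlap. The difference was 1.46 ± 0.32 (adjusted p = 0.0085). Alas1, the form of the same enzyme in other tissues, measured 13.42, 13.97, 13.59, 13.77 and 13.69 against 14.17, 14.35, 14.17, 14.25 and 14.15. It was higher by 0.53 ± 0.10 (adjusted p = 0.0027). Old controls were higher still in Alas1, at 14.63 to 15.06, so that mixed-tocopherol hearts lay below them by -0.63 ± 0.10 (adjusted p = 0.00074, and 0.011 without old controls 1 and 4). The copper-carrying ferroxidase Cp was higher by 0.74 ± 0.18 (adjusted p = 0.019, and 0.057 without mixed-tocopherol animal 1), and the second enzyme of the pathway, Alad, was lower by -0.38 ± 0.10 (adjusted p = 0.033, and 0.095 without mixed-tocopherol animal 2). Of 7 erythroid markers 2 were higher, Alas2 and the globin Hbb-b2 (0.75 ± 0.18, adjusted p = 0.018, and 0.055 without young control 5). The summed erythroid level was 17.26 to 18.05 in mixed-tocopherol and 17.11 to 17.84 in young hearts, and its part in the difference of Alas2 was not tested.

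Of 8 tested liver markers 3 were lower in mixed-tocopherol hearts and 0 higher, where 3.21% of all tested genes were lower. By limma 0 of 10 skeletal muscle, 8 smooth muscle and pericyte, 4 T cell, 5 B cell and 4 Schwann and neuronal markers were called. Of 13 endothelial markers 1 was lower, Tie1 (-0.63 ± 0.17, adjusted p = 0.027, and 0.078 without young control 1), with a second probe set at 0.02. Of 6 atrial markers 1 was higher, Myl1 (0.61 ± 0.16, adjusted p = 0.031, and 0.09 without young control 3), where 2.35% of all tested genes were. Against old controls 3 endothelial markers and 1 atrial marker were lower and 0 higher, with 6.85% of all tested genes called. Albumin (Alb), a secreted liver protein, measured 11.18, 10.11, 12.50, 10.96 and 7.56 in young and 7.33, 7.48, 7.92, 7.45 and 9.45 in mixed-tocopherol hearts. Young animal 5 was near the mixed-tocopherol level and mixed-tocopherol animal 5 stood above the rest of its group. The difference was -2.54 ± 0.64 (adjusted p = 0.022, and 0.067 without young control 3), and against old controls it was -4.33 (adjusted p = 0.0005). The other lower liver markers were the urinary protein gene Mup3 (-1.37 ± 0.36, adjusted p = 0.027, and 0.082 without young control 1) and the cytochrome Cyp2e1 (-0.82 ± 0.18, adjusted p = 0.0078). The summed liver marker level was 13.31 to 14.40 in young, 13.16 to 14.81 in old control and 12.55 to 13.21 in mixed-tocopherol hearts. Igkv6-23, an immunoglobulin light chain segment of a multigene family, differed by -2.74 ± 0.78 (adjusted p = 0.047). It read 14.94 in young animal 3 and 11.05 to 12.06 in the other young hearts, against 7.07 to 11.03 in mixed-tocopherol hearts, and without young control 3 it was -2.06 (adjusted p = 0.082). The complement gene C1qb, 1 of 12 myeloid markers and the only one called, was lower by -0.87 ± 0.22 (adjusted p = 0.02, and 0.056 without mixed-tocopherol animal 4), while a second probe set read 0.23. Of 17 cytosolic ribosome genes 3 were lower, Rpl19 (-0.33 ± 0.08), Rps19 (-0.41 ± 0.11) and Rps3 (-0.33 ± 0.09), and 0 were called by limma without young control 3. A second probe set of Rpl19 read 0.68.

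The largest rises belonged to genes of many kinds, several of them dim on these arrays. The kallikrein Egfbp2 was higher by 2.03 ± 0.48 (adjusted p = 0.014, and 0.05 when only these 2 groups were fitted) and its relative Klk1b16 by 1.47 ± 0.31 (adjusted p = 0.0066), in a multigene family whose members share sequence. The exonuclease Isg20 (1.97 ± 0.48, adjusted p = 0.016) and the hormone gene Prl (1.91 ± 0.48, adjusted p = 0.02) had an adjusted p of 0.052 without young control 1 and of 0.057 without mixed-tocopherol animal 2. Ppp1r3c, a subunit that brings a phosphatase to glycogen, measured 10.26, 9.99, 9.74, 10.20 and 10.01 in young and 11.51, 11.45, 11.56, 11.78 and 11.37 in mixed-tocopherol hearts. The mixed-tocopherol hearts lay close together and above all young ones, with a difference of 1.49 ± 0.30 (adjusted p = 0.0046). The glutamate transporter Slc1a2 (1.41 ± 0.33), the xenobiotic-metabolising cytochrome Cyp2b10 (1.28 ± 0.30) and cyclin E (Ccne1, 1.24 ± 0.29) were higher with adjusted p = 0.014, 0.014 and 0.013. Among the largest drops, the G protein subunit Gna11 differed by -1.83 ± 0.37 (adjusted p = 0.0046), Nnat, an imprinted gene of brain and fat, by -2.02 ± 0.43 (adjusted p = 0.0071) and the DNA ligase Lig1 by -1.72 ± 0.41 (adjusted p = 0.016). These genes too were dim in mixed-tocopherol hearts, at 7.13 to 9.06, 6.95 to 9.27 and 7.10 to 9.37. Nnat and Lig1 overlapped the young range.

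Some of the smallest p-values belonged to genes outside the naming rule, picked after their values were seen. The nucleolar protein Ncl measured 13.36, 13.15, 13.22, 13.30 and 13.24 in young and 12.58, 12.31, 12.59, 12.26 and 12.41 in mixed-tocopherol hearts. Both groups were tight and far apart, with a difference of -0.82 ± 0.09 (adjusted p = 1.4e-05). The focal adhesion protein Tns2 (-1.24 ± 0.17, adjusted p = 0.00026) and the phosphatase Ptp4a3 (-0.88 ± 0.13, adjusted p = 0.00036) were lower, and the motor protein Kif1c (0.74 ± 0.11, adjusted p = 0.00045) and the ubiquitin ligase adaptor Klhl9 (0.80 ± 0.12, adjusted p = 0.00065) were higher. The oxygen-sensing transcription factors Hif1a (-0.65 ± 0.12, adjusted p = 0.0026) and Epas1 (-1.18 ± 0.24, adjusted p = 0.0046) and the NF-kappaB inhibitor Nfkbia (-0.80 ± 0.15, adjusted p = 0.0026) were lower too. Hif1a measured 12.88 to 13.03 in young and 12.11 to 12.50 in mixed-tocopherol hearts. Of probe sets without a single gene symbol, 95407_at differed by 2.54 ± 0.17 (adjusted p = 2e-09) and 102693_f_at by 2.01 ± 0.48 (adjusted p = 0.016), and 101566_f_at by -3.04 ± 0.59 (adjusted p = 0.0042) and 99671_at by -2.44 ± 0.52 (adjusted p = 0.0071).

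Of 11 fetal and stress genes 1 was called between mixed-tocopherol and young hearts, where 5.56% of all tested genes were. The natriuretic peptides Nppa (0.02 ± 0.13, adjusted p = 0.96) and Nppb (0.06 ± 0.26, adjusted p = 0.93), the adult myosin heavy chain Myh6 (0.00 ± 0.11, adjusted p = 0.99) and the calcium pump Atp2a2 (-0.09 ± 0.09, adjusted p = 0.61) were not called. The slow myosin heavy chain Myh7 measured 16.33, 16.09, 15.47, 15.77 and 15.73 in young and 16.51, 15.32, 15.60, 15.31 and 15.45 in mixed-tocopherol hearts. These ranges overlapped and the difference of -0.24 ± 0.20 was not called (adjusted p = 0.55). Another Myh7 probe set was much dimmer (9.32 on average over all arrays) and was not called either (-0.75 ± 0.33, adjusted p = 0.2). Old controls measured 14.41 to 15.23 in Myh7, below every mixed-tocopherol heart, and the difference from them was 0.78 (adjusted p = 0.023). It read 0.81 without old controls 1 and 4 (adjusted p = 0.072), and without old control 5 its adjusted p was 0.066. Of 21 sarcomere genes 2 were called higher (2.35% of all tested genes were) and 0 lower, with a median of -0.03. The connective growth factor Ccn2 (-1.18 ± 0.26, adjusted p = 0.009), which responds to load and to TGF-beta, was lower, at 10.45 to 12.17 in mixed-tocopherol and 12.24 to 12.87 in young hearts.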

How the data were processed

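Total RNA of frozen hearts was purified for polyadenylated RNA and hybridized as labelled complementary RNA to oligonucleotide arrays, per the labels' protocols. The deposited table holds a linear intensity for 12488 probe sets; the sources used here name no software for it. The values show that the authors scaled the arrays to a trimmed mean of 1501 to 1501.1 (2% left out at each end), and array medians lay within 0.115 (log2). No further normalization was made.

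The value 58 added before log2 is near the 10th percentile (57.6), so folds of dim probe sets are understated. Left out were 66 control probe sets and, of the others, the dimmest 40%. limma 3.58.1 (R 4.3.3; eBayes with a trend, robust) fitted 4 group means over 20 arrays with 16 residual degrees of freedom. For the 909 genes with several tested probe sets, the brightest on average was used. Symbols came from the platform annotation (10833 single, 396 several, 1193 none); 10817 probe sets matched RefSeq. Permutation tests used scipy 1.17.1.

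The members and gene lists were chosen with earlier results of these data known. Named were the 12 highest and 12 lowest called genes, the 4 called members of smallest p in lists with at least 3 called, a short list of fixed genes, and the 6 highest and 6 lowest against old controls. List members were named besides, and the text uses part of this set. The steps were tested on simulated data. Alternatives were other pseudocounts, filters, scalings, variance models, array weights, covariates, subsets of groups, a replicate block and leaving out each animal.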

Additional observations from a re-analysis of the deposited data

Results flagged for a closer look

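The 75 genes of the naming rule and the 5 array measures were searched for a single value far from the other 4. The search covered the young and the mixed-tocopherol groups, 5 hearts each, and not the old controls. It used the gap from the value to its neighbour over the range of the group (critical value 0.71). This gave 12 values in 160 groups, where chance gives about 1 in 20.

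In mixed-tocopherol hearts the lowest values were 8.59 for Ucp3 (next 9.35), 11.84 for Txnip (next 13.05), 12.33 for Serpinh1 (next 12.86), 15.53 for Atp2a2 (next 15.81) and 7.86 for Pmm1, a phosphomannomutase (next 9.51). The lowest level of the hybridization controls there was 12.39 (next 13.10), in animal 5. The highest values were 9.45 for Alb (next 7.92), 16.51 for the myosin Myh7 (next 15.60) and 0.01 for the difference between the end and start probe sets of Gapdh (next -0.13).

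In young hearts the lowest value of Eci1 was 14.68 (next 15.17), and the highest were 14.94 for Igkv6-23 (next 12.06) and 13.15 for Sod2 (next 12.84). The Eci1 and Igkv6-23 values came from animal 3, the heart with lymphocyte transcripts.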

How the results depend on the processing

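The count of 414 probe sets called between mixed-tocopherol and young hearts ranged from 287 (only these 2 groups fitted) to 474 (array weights). It was 303 to 383 with 1 animal left out, and after centring each array on its median it was 391, of which 136 were higher and 255 lower (182 and 232 with the deposited scaling). Against old controls, where 479 were called, it was 858 with array weights, 242 with hybridization controls as a covariate and 263 to 447 with 1 animal left out. The lowest were 263 without mixed-tocopherol animal 1, 299 without mixed-tocopherol animal 2 and 300 without old control 5. For old against young controls, where 368 were called, it was 731 with array weights and 258 to 367 with 1 animal left out. Without old controls 1 and 4 the counts were 162 against old controls and 150 for old against young; leaving them out was decided after seeing the data. The cause of these moves was not tested.

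Replicate numbers did not pair the samples (correlation of same-numbered mixed-tocopherol and young hearts -0.084 to 0.057). With the replicate number as a block 405 probe sets were called, of which 366 were among the 414, and 451 and 347 in the comparison with old controls and of old with young controls. No called gene among those followed (named genes and list members called against young hearts) reversed its direction under a setting that was run. The number of arrays and the signal over background of dim genes limit the precision.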

Other observations

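Of 33 proteasome genes 1 was called, where 5.56% of all tested genes were. It was the core subunit Psma4, which was lower by -0.41 ± 0.10 (limma adjusted p = 0.02, with an adjusted p above 0.05 without mixed-tocopherol animal 2 or young control 4). Against old controls it was lower by -0.63 (adjusted p = 0.0013). Of 19 lysosomal genes 2 were lower, the tetraspanin Cd63 (-0.55 ± 0.11, adjusted p = 0.0046) and the protease Lgmn (-0.46 ± 0.13, adjusted p = 0.032). Cd63 was called whichever animal was left out, and Lgmn in 4 of 10 such fits. Of 15 interferon-responsive genes 0 were called by limma, with a median of 0.39, and of 13 genes of antigen presentation 0. The 7 class II genes among these all had negative differences from young hearts (median -0.57), from -0.28 for H2-Eb1 to -1.28 for H2-Aa (adjusted p = 0.29). The 6 class I genes had a median of 0.19. The interferon median was high through members that each missed the threshold, with 12 of 15 positive.

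Of 13 circadian clock genes 0 were called by limma, with a median of 0.00. Against old controls 1 was higher, Cry1 (0.91, adjusted p = 0.0018), and 1 lower, the clock output gene Dbp (-1.46, adjusted p = 0.0061). The labels used here give no time of day for the hearts.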
